A study of Mus musculus with 6 samples.

Results

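The 9 genes followed here set or mark the cell states of small cell lung cancer (SCLC) and comprise the subtype regulators Neurod1, Pou2f3 and Yap1, the neuroendocrine regulator Insm1, the repressors Rest and Hes1, and the MYC family members Myc, Mycl and Mycn. They were taken by symbol from a table of 20273 gene rows, and 6 of the 9 have a row there. No row carries the symbol Neurod1, Pou2f3 or Insm1, so these 3 genes were not analysed here. The table holds bulk RNA sequencing of murine SCLC cells of lung origin, in 2 groups of 3 libraries, made to ask how loss of the receptor tyrosine kinase ERBB2 alters these cells. ERBB2 KO 1 to 3 are libraries of cells that received a Cas9 construct against Erbb2, passed puromycin selection and were sorted as single clones. WT 1 to 3 are libraries of cells labelled as wild type. By the study's methods its murine lines were grown from tumours of mice with conditional loss of Rb1 and Trp53, which then applies to both groups. How many clones or parental lines the 6 libraries stand for is not given in the sources used here. P-values therefore measure the spread between these libraries, which may be technical in part, and need not hold for other clones or lines.

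SCLC cells mostly resemble neuroendocrine cells of the airway, and tumours are sorted by the transcription factor that leads in them. Neurod1 belongs to a neuronal form and Pou2f3 to a form that resembles tuft cells, while Yap1, a co-activator held in check by the Hippo kinases, belongs to forms with few neuroendocrine features. Insm1 is a zinc finger factor of neuroendocrine differentiation. Rest silences neuronal genes outside neurons, and Hes1, a repressor switched on by Notch receptors, blocks the proneural programme. Myc, Mycl and Mycn bind E-box DNA together with Max, and SCLC tumours often depend on a member of this family.

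Values are given in CPM, a gene's reads scaled by the library total as in the table. The totals recovered from the table ran from 8927464 to 11792346 reads in ERBB2 KO and from 10983855 to 13255676 in WT, so that 3 reads stood for 0.226 CPM (WT 3) to 0.336 CPM (ERBB2 KO 1). That limit and the intervals for single libraries cover counting error only. Libraries did not fall into their groups alone. Over the 11803 tested genes, which are not independent replicates, WT 1 correlated with ERBB2 KO 2 and ERBB2 KO 3 at r = 0.959 and 0.955, and with WT 2 and WT 3 at 0.919 and 0.931. ERBB2 KO 1 stood apart, at 0.882 to 0.913 with every other library. Xist had at most 0.112 CPM in ERBB2 KO, against 0 CPM in WT 1, 208 CPM in WT 2 and 178 CPM in WT 3. Of 5 listed genes that differ by sex chromosomes 2 have a row, Xist and a gene that stayed below 1 CPM in all libraries. So WT 1 was unlike WT 2 and WT 3 in Xist, and neither the reason nor the sex of the cells was tested. Results below are therefore also given without some of these libraries where that matters. Without WT 1, ERBB2 KO against WT is also the split by Xist, and a difference there cannot be assigned to either. Erbb2 transcript had 12.1, 6.19 and 2.80 CPM in ERBB2 KO 1 to 3 and 10.7, 3.95 and 6.64 CPM in WT 1 to 3, but the position of the edit is not given and these reads are no test of the knockout. By label the cells are epithelial: Krt8 had 590.1 to 973 CPM in ERBB2 KO and 402 to 1060.5 CPM in WT, Epcam has no row, and Krt7 had 2.02, 0.254 and 0.519 CPM in ERBB2 KO against 61.3, 279 and 2.19 CPM in WT (log2 difference -4.41, limma unadjusted p = 0.0183, adjusted p = 0.350). Cdh1 stayed at or below 0.336 CPM outside WT 3 (10.0 CPM). Of 8 listed epithelial genes 7 have a row and 4 were tested, with 0 passing. Of these 4, 2 were higher in ERBB2 KO (up to 0.80) and 2 lower, Krt7 the lowest.

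Of the members, Hes1 was the one that separated the groups, 1 of the 4 tested. As 19.4% of all tested genes also separated, nothing is read from that count. The level of Hes1 was lower in all 3 ERBB2 KO libraries, at 0.357 of the WT level by group means. Yap1, Rest and Myc overlapped between the groups, and Mycl and Mycn were near the detection limit in nearly all libraries. Yap1, Rest, Hes1 and Myc, the 4 members that reached 1 CPM in 3 or more libraries, entered the limma fit over 11803 genes, and 0 of the 4 had an adjusted p below 0.05. Over all tested genes that share was also 0% (0 genes, by limma and by limma's voom on recovered reads), while 13.2% of all genes had an unadjusted p below 0.05, 1561 by limma and 1553 by voom. Every log2 difference below subtracts the WT mean from the ERBB2 KO mean of log2(CPM + 1), a scale that shrinks changes of low genes. In bulk samples, fewer cells of a kind and less RNA per cell cannot be told apart.

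**Figure D1:**
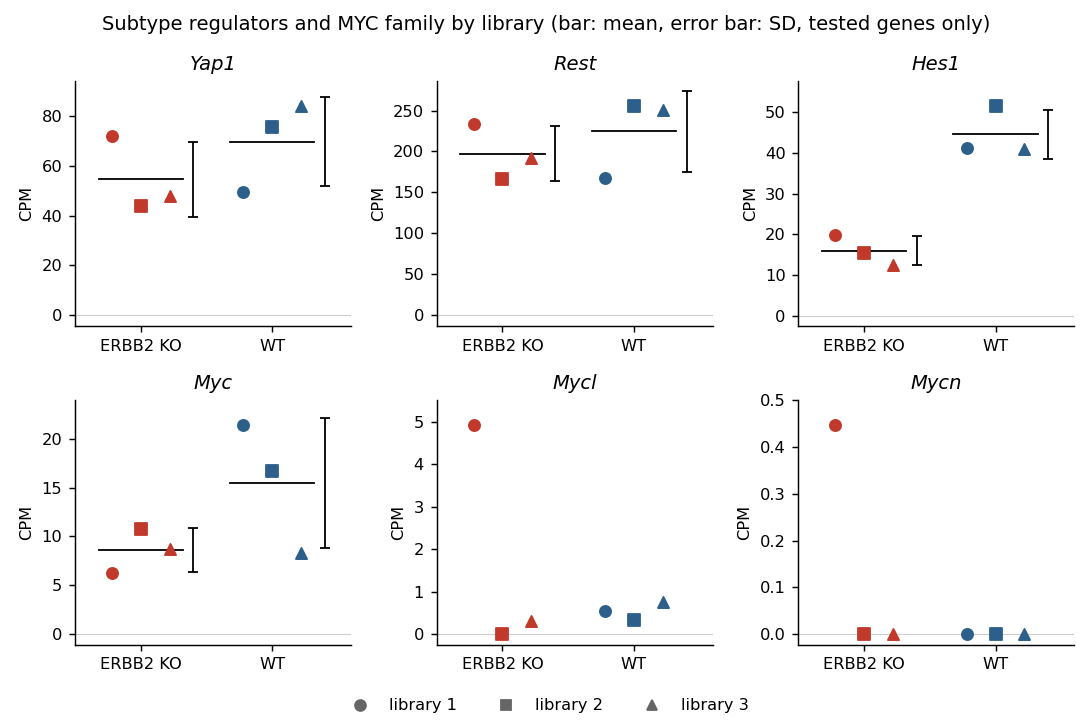
CPM (vertical axis, linear) of the 6 members with a row, per library, ERBB2 KO left and WT right; circles, squares and triangles are libraries 1, 2 and 3, horizontal bars the group means and error bars the SD of 3 libraries, drawn for the 4 tested members only. Hes1 is at 12.6 to 19.7 CPM in ERBB2 KO and at 41.0 to 51.6 CPM in WT, Yap1, Rest and Myc overlap, and Mycl is above 1 CPM in ERBB2 KO 1 alone.

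Hes1 (GRCm38 chromosome 16, 30065357 to 30067796) had 19.7, 15.5 and 12.6 CPM in ERBB2 KO 1 to 3, on 176, 183 and 121 reads, against 41.2, 51.6 and 41.0 CPM in WT 1 to 3, on 453, 640 and 544 reads. Every ERBB2 KO library lay below every WT library, and the gap between the groups was wider than the range within either. Such a separation downward was seen in 10.6% of all tested genes, and in either direction in 19.4%. The means were 15.9 ± 3.59 CPM in ERBB2 KO and 44.6 ± 6.01 CPM in WT (SD, n = 3 each). The difference came to -1.44 in log2 (SE 0.24), with a 95% interval of -2.0 to -0.89 (limma, unadjusted p = 0.000414, adjusted p = 0.288), the 17th smallest p of the 11803 genes. With WT 1 as the only WT library, which leaves that arm without a spread of its own, the difference was -1.50 for ERBB2 KO 2 and 3 and -1.34 for the 3 ERBB2 KO libraries. Its adjusted p came closest to the threshold without ERBB2 KO 1 (limma, 0.0648) and without WT 1 (0.0658), and ran up to 0.998 over the alternatives.

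**Figure D2:**
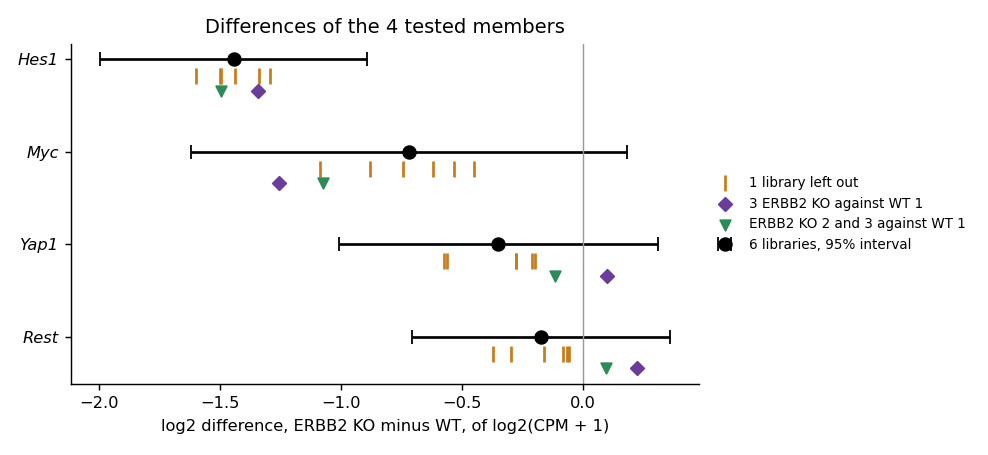
Log2 difference of log2(CPM + 1), ERBB2 KO minus WT (horizontal axis), for the 4 tested members; black points and bars are the fit on 6 libraries with its 95% interval, orange ticks leave out 1 library each, and the purple diamond and green triangle use WT 1 as the only WT library. The interval of Hes1, -2.0 to -0.89, stays below 0, those of Myc, Yap1 and Rest cross 0, and the diamonds of Yap1 (0.10) and Rest (0.22) lie right of 0.

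Notch signalling, which switches on Hes1, was read from 24 listed genes, of which 20 have a row and 14 were tested. Among these 8 were higher and 6 lower in ERBB2 KO, 0 passed, 0 separated the groups and the median difference was 0.10, beside -0.04 over all tested genes. The receptor Notch2 had 53.4, 34.4 and 21.9 CPM in ERBB2 KO against 44.4, 70.8 and 38.2 CPM in WT (log2 difference -0.51, SE 0.37). Notch1 did not exceed 0.112 CPM in ERBB2 KO and 1.46 CPM in WT, and was not tested. Rbpj, the DNA-binding partner of the cleaved receptors, had 177, 83.4 and 109.6 CPM in ERBB2 KO against 83.1, 100.1 and 98.1 CPM in WT. The other Notch-induced repressor Hey1 lay the other way from Hes1, with 5.94, 3.22 and 1.87 CPM in ERBB2 KO against 2.91, 0.967 and 0.754 CPM in WT (0.88, SE 0.46, limma adjusted p = 0.435, and 0.55 without ERBB2 KO 1). Hes6, a relative that opposes Hes1, had 21.2, 18.8 and 15.1 CPM in ERBB2 KO against 16.5, 5.24 and 10.9 CPM in WT (0.82, SE 0.39, and 0.41 without WT 2). For both, 1 WT library reached into the ERBB2 KO range. The ligand Jag2 had 5.82, 9.58 and 10.1 CPM in ERBB2 KO, against 5.92 CPM in WT 1, 0 CPM in WT 2 and 0.226 CPM in WT 3. It did not pass with 6 libraries (2.19, SE 0.72, limma adjusted p = 0.350) but passed without WT 1 (3.07, adjusted p = 0.0208). Without WT 1 the groups also differ in Xist throughout, so that pass cannot be assigned to the knockout.

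Yap1 (chromosome 9, 7931999 to 8004638) was measured on 462 to 641 reads in ERBB2 KO and 545 to 1113 reads in WT. It had 71.8, 43.7 and 48.0 CPM in ERBB2 KO 1 to 3 and 49.6, 75.6 and 84.0 CPM in WT 1 to 3. ERBB2 KO 1 lay close to WT 2 and WT 3, and WT 1 close to ERBB2 KO 2 and 3, so the groups overlapped. The means were 54.5 ± 15.1 CPM in ERBB2 KO and 69.7 ± 17.9 CPM in WT (SD, n = 3 each), giving a log2 difference of -0.35 and an interval of -1.01 to 0.31 (limma, SE 0.28, adjusted p = 0.594). Against WT 1 alone the 3 ERBB2 KO libraries gave 0.10. The interval spans both directions, so neither a difference nor its absence was shown.

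To set the Yap1 gene beside a gene it is known to control, the 208 bases before the outermost RefSeq start of Yap1 (base 8004638) and of Ccn1 (base 145649985; the current symbol of Cyr61) are shown from RefSeq, build GRCm38.p6. The promoter table itself places the start of Yap1 further inside the gene, and the 42 bases between both starts are left out. The capitals mark GGAATG, the motif of the TEAD factors that carry Yap1 to DNA, or its reverse complement CATTCC, and CACGTG, the E-box bound by MYC with Max.
Yap1, chr9:8004639-8004846, minus strand: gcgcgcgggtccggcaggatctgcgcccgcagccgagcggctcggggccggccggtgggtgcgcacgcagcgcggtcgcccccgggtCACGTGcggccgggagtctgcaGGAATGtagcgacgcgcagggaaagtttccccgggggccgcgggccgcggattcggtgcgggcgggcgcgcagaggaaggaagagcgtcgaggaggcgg
Ccn1, chr3:145649986-145650193, minus strand: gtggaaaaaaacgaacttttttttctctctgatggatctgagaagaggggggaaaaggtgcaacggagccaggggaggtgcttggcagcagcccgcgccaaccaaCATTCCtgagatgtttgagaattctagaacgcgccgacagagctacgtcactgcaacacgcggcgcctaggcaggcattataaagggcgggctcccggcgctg
In the Yap1 window CACGTG lies 121 to 116 bases and GGAATG 99 to 94 bases before base 8004638, counted back from it. The Ccn1 window holds the TEAD motif on the opposite strand, 103 to 98 bases before its start, and no CACGTG. Searched on both strands, GGAATG occurs in 10.5% of 32851 windows of this length before the table's starts, and CACGTG in 5.41%. The motifs share no bases here, and a match describes the letters only. Of the 9 members, 4 have an entry in the promoter table used (Neurod1, Yap1, Mycl and Mycn).

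The pathway around Yap1 was lower in ERBB2 KO for most of its genes, by amounts that mostly lay within the spread. Of 18 genes for Yap1, its paralog Wwtr1 (TAZ), the TEAD factors and the Hippo kinases, all 18 were tested, 15 were lower and 3 higher (Tead4, and Nf2 and Amot, named after their values were seen), and the median was -0.35. Over all tested genes 6274 of 11803 were lower. The list was chosen with earlier results of these data known, so its counts are a description only. In it 4 genes lay below every WT library, beside 10.6% of all genes. These 4 were Tead1, the Hippo kinase adaptors Mob1a and Mob1b, and Amotl2, an angiomotin that holds Yap1 at junctions and is also listed among the targets below. Mob1a had 71.8, 67.7 and 55.0 CPM in ERBB2 KO against 97.1, 124 and 110.2 CPM in WT (-0.76, SE 0.19, limma adjusted p = 0.321). Amotl2 had 30.9, 44.1 and 36.0 CPM in ERBB2 KO against 60.1, 143 and 81.2 CPM in WT (-1.25, SE 0.33). Tead1 had 65.8, 59.8 and 65.5 CPM in ERBB2 KO against 69.5, 103 and 76.2 CPM in WT, where WT 1 was within 4 CPM of ERBB2 KO 1. Wwtr1 overlapped, with 159.8, 75.5 and 58.2 CPM in ERBB2 KO against 112, 103 and 90.5 CPM in WT. The factors Tead2, Tead3 and Tead4 overlapped too, at differences of -0.58, -0.34 and 0.05. Vgll3, which competes with Yap1 for TEAD, had 4.14, 0 and 0 CPM in ERBB2 KO against 3.82, 63.6 and 7.62 CPM in WT, a difference of -3.01 (SE 1.06) that was -1.90 without WT 2.

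The largest differences around Yap1 were found among target genes of YAP and TEAD. The targets were listed with earlier results of these data known, so counts over them are a description only. All 22 listed targets were tested, 16 lower and 6 higher in ERBB2 KO, with a median of -0.64. Of these, 8 lay below every WT library (10.6% of all genes did) and 2 above, the kinetochore gene Ndc80 and the Hippo scaffold Wwc1, both named after their values were seen. At an unadjusted p below 0.05 there were 8 lower and 2 higher (Ndc80 again and Asap1, likewise named after the fact), beside 7.27% and 5.96% of all genes, and 0 passed over all genes. Ctgf, a secreted matricellular protein, had 3.36, 9.16 and 13.0 CPM in ERBB2 KO against 265, 455 and 71.4 CPM in WT (-4.60, SE 0.71, limma adjusted p = 0.267). Its relative Cyr61 had 3.58, 12.0 and 11.8 CPM in ERBB2 KO against 176, 259 and 57.9 CPM in WT (-3.93, SE 0.63). In both genes the lowest WT library, WT 3, was still several times higher than the highest ERBB2 KO library, and the spread within WT was wide. The ecto-nucleotidase Nt5e had 0.112, 0 and 0 CPM in ERBB2 KO, under the limit of 3 reads in each library, against 2.28, 5.32 and 5.28 CPM in WT. F3, tissue factor, had 0.896, 2.12 and 0.935 CPM in ERBB2 KO against 13.1, 9.91 and 3.39 CPM in WT. In these 4 targets WT 1 lay on the side of WT 2 and WT 3. They were named for the smallest p of their list, which favours that order, so no contrast with Yap1 is read from it.

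**Figure D3:**
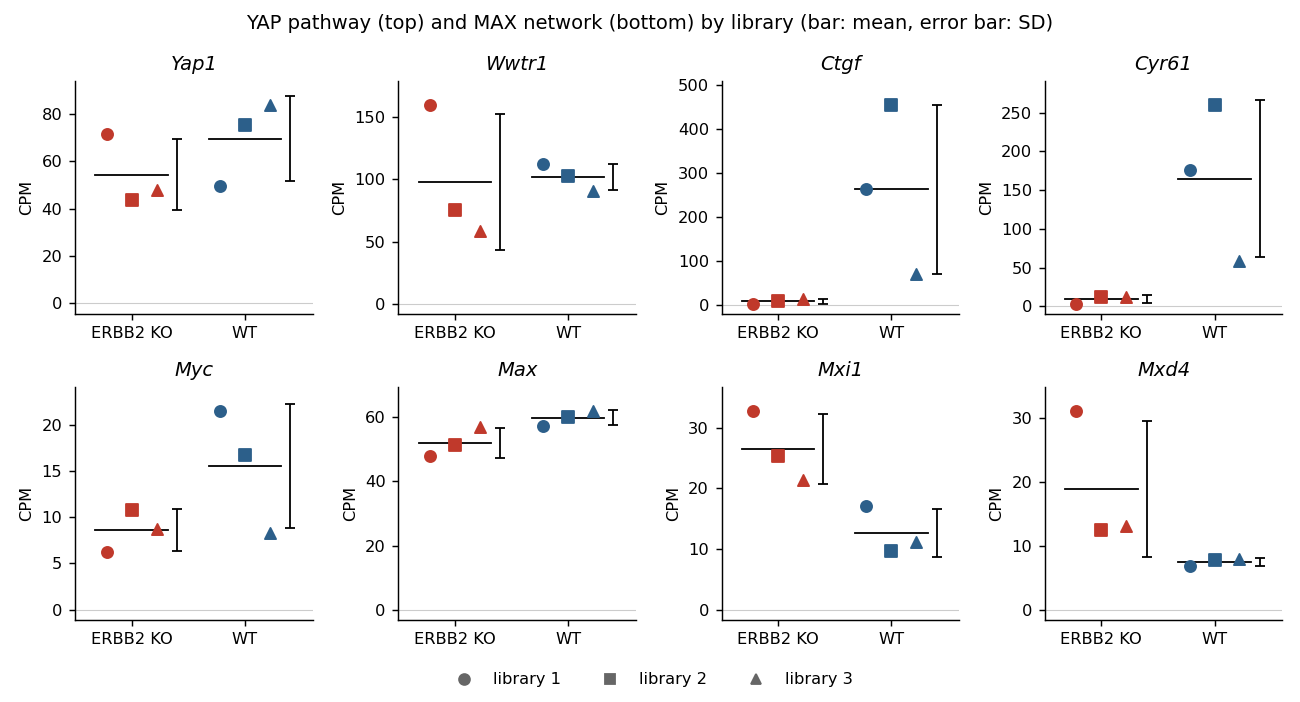
CPM (vertical axes, linear, a scale for each gene) of Yap1, its paralog Wwtr1 and the targets Ctgf and Cyr61 (top), and of Myc, Max, Mxi1 and Mxd4 (bottom), ERBB2 KO left and WT right; points are libraries, bars group means, error bars the SD of 3 libraries. Yap1 and Wwtr1 overlap between the groups while Ctgf is at most 13.0 CPM in ERBB2 KO and at least 71.4 CPM in WT; Mxi1 and Mxd4 lie higher in all 3 ERBB2 KO libraries.

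Rest (chromosome 5, 77265494 to 77286432) had 233, 167 and 192 CPM in ERBB2 KO 1 to 3 and 167, 256 and 251 CPM in WT 1 to 3, on at least 1838 reads per library. RefSeq places Mir5098 within it, and reads of the one cannot be told from those of the other here. The order of the libraries was close to that of Yap1, with ERBB2 KO 1 near WT 2 and WT 3 and WT 1 level with ERBB2 KO 2. Over the 6 libraries Rest and Yap1 correlated at r = 0.95, a description in which each point shares its library and depth between the genes. The means were 197 ± 33.6 CPM in ERBB2 KO and 225 ± 49.6 CPM in WT (SD, n = 3 each). In log2 they differed by -0.17, with an interval of -0.71 to 0.36 (limma, SE 0.23, adjusted p = 0.758). It was 0.22 for the 3 ERBB2 KO libraries against WT 1, and 0.10 without ERBB2 KO 1 as well.

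Rest acts through corepressors, and its 15 listed partners and regulators were all tested, 9 lower and 6 higher in ERBB2 KO, with 0 passing and a median of -0.08. Rcor1 and Hdac2 lay below every WT library and Btrc above, 3 of 15, a share near the 19.4% of all genes that separate either way, so nothing is read from the count. The scaffold Rcor1 (CoREST) had 44.4, 58.2 and 59.2 CPM in ERBB2 KO against 60.2, 76.7 and 81.1 CPM in WT, where WT 1 was within 1 CPM of ERBB2 KO 3. The deacetylase Hdac2 had 59.7, 63.9 and 72.9 CPM in ERBB2 KO against 81.3, 115 and 102 CPM in WT (-0.58, SE 0.19, limma adjusted p = 0.350). Btrc, the ubiquitin ligase subunit that marks Rest for degradation, had 6.27, 5.68 and 6.65 CPM in ERBB2 KO against 4.73, 3.14 and 2.56 CPM in WT (0.71, SE 0.29). Of 25 neuronal genes that Rest represses, 16 have a row, 7 of them stayed below 1 CPM in all libraries, and 8 were tested, 4 higher and 4 lower, with 0 passing and a median of -0.04. They did not move together. Stmn2, a tubulin-binding protein of growing axons, had 1395, 134 and 209 CPM in ERBB2 KO against 143, 44.8 and 13.7 CPM in WT. Gap43, a growth cone protein, had 0.224, 0 and 1.56 CPM in ERBB2 KO against 1.55, 10.8 and 8.75 CPM in WT. It passed without WT 1 (-2.87, limma adjusted p = 0.0497), where the groups also differ in Xist, but not with WT 1 (-2.18, adjusted p = 0.336). Neuronal tubulin Tubb3 had 1.68, 3.14 and 1.77 CPM in ERBB2 KO against 2.82, 8.06 and 9.96 CPM in WT.

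The neuroendocrine markers that Rest and Hes1 oppose were mixed, some without reads and a few abundant. Of 23 neuroendocrine markers 15 have a row and 7 of these, among them the vesicle protein Syp, the Notch ligand Dll3 and the granins Chgb and Scg2, did not reach 1 CPM in any library. Of the 6 tested, Stmn2 (above) was higher and 5 were lower in ERBB2 KO, 0 passed, 0 separated the groups and the median was -0.54. Summed over the 15, the markers ran from 503 to 1532 CPM in ERBB2 KO and from 434 to 1341 CPM in WT, mostly Ncam1 and Stmn2. The adhesion molecule Ncam1 had 121, 353 and 345 CPM in ERBB2 KO against 277, 1253 and 659 CPM in WT. The tested markers Eno2 (-0.57) and Syn1 (-0.84) were lower too and did not pass. Uchl1, a ubiquitin hydrolase of neuroendocrine cells, was not tested and is named outside the rule given below. It had 0 CPM in the 3 ERBB2 KO libraries against 0.546, 26.6 and 10.7 CPM in WT, where the value of WT 1 rests on 6 reads.

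For the members without a row, listed factors around them and genes of the cell states they lead were read, which do not measure the members themselves. Of 23 listed factors around Neurod1 and Insm1, 12 have a row and 7 were tested. Of these 3 were higher and 4 lower in ERBB2 KO, with 0 passing and a median of -0.31. Besides proneural and zinc finger relatives the list holds other factors, such as Lhx2, so its median does not speak for relatives alone. Insm2, the paralog of Insm1, reached at most 0.254 CPM in ERBB2 KO and 0.226 CPM in WT. The homeodomain factor Lhx2 had 16.2, 8.82 and 9.56 CPM in ERBB2 KO, against 8.56 CPM in WT 1 and 0 CPM in WT 2 and WT 3. ERBB2 KO 2 lay just above WT 1. Lhx2 passed without WT 1 (3.60, limma adjusted p = 0.0127), where the groups also differ in Xist, but not with WT 1 (2.52, adjusted p = 0.350). Tcf4, an E protein that pairs with proneural factors, had 127, 40.7 and 49.9 CPM in ERBB2 KO against 78.4, 160.0 and 188 CPM in WT. Of 16 tuft cell genes of the Pou2f3 state, 11 have a row, 5 do not (Trpm5, Chat, Gfi1b, Il25 and Rgs13), and 5 were tested, 3 higher (Alox5ap, Ptgs1 and Hpgds) and 2 lower (Sox9 and Dclk1), with 0 passing. Alox5ap and Ptgs1, both of eicosanoid synthesis and expressed outside tuft cells as well, separated the groups upward, as 8.76% of all genes did. Alox5ap had 2.58, 6.11 and 4.57 CPM in ERBB2 KO against 0, 0.967 and 0.981 CPM in WT (1.73, SE 0.42, limma adjusted p = 0.321). Ptgs1 had 88.5, 153 and 137 CPM in ERBB2 KO against 66.2, 49.3 and 22.3 CPM in WT (1.53, SE 0.41).

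Myc (chromosome 15, 61985341 to 61990361) was the MYC family gene with reads in every library. It had 6.27, 10.8 and 8.72 CPM in ERBB2 KO 1 to 3, on 56, 127 and 84 reads, against 21.5, 16.8 and 8.30 CPM in WT 1 to 3, on 236, 208 and 110 reads. WT 1 and WT 2 lay above all ERBB2 KO libraries and WT 3 among them. The means were 8.59 ± 2.25 CPM in ERBB2 KO and 15.5 ± 6.68 CPM in WT (SD, n = 3 each), with a log2 difference of -0.72 and an interval of -1.62 to 0.18 (limma, SE 0.38, adjusted p = 0.441). Without WT 3 the groups separated, as 25.5% of all genes then did, and the difference was -1.09, and without WT 1 it was -0.45. For ERBB2 KO 2 and 3 against WT 1 it was -1.07.

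Mycl (chromosome 4, 122995588 to 123002490) had 44 reads in ERBB2 KO 1, which is 4.93 CPM with an exact Poisson 95% interval of 3.58 to 6.62 CPM. ERBB2 KO 2 had 0 reads, where the limit of 3 reads is 0.254 CPM (0.313 CPM by the exact interval), and ERBB2 KO 3 had 3 reads, 0.312 CPM. WT 1 to 3 had 0.546, 0.322 and 0.754 CPM on 6, 4 and 10 reads. A level clear of the other 5 libraries was thus seen in 1 library of the ERBB2 KO group and not in the group, and Mycl was not tested. Mycn (chromosome 12, 12936093 to 12941836) had 4 reads in ERBB2 KO 1 (0.448 CPM, interval 0.122 to 1.15) and 0 reads in ERBB2 KO 2, ERBB2 KO 3 and the 3 WT libraries, where the limit of 3 reads is 0.226 to 0.312 CPM (0.278 to 0.383 CPM by the exact interval). ERBB2 KO 1 was also the library with the highest sums over fibroblast and leukocyte markers. Of 8 fibroblast markers 6 have a row (not Lum or Postn), and their sum ran from 49.0 to 321 CPM in ERBB2 KO and from 54.7 to 229 CPM in WT, with Dcn at 267 CPM in ERBB2 KO 1. Of 8 leukocyte markers 6 have a row, with sums of 12.5 to 43.8 CPM in ERBB2 KO and 13.7 to 22.4 CPM in WT, and Ptprc, which defines leukocytes, had 0 CPM in ERBB2 KO 1. Of the 3 tested leukocyte markers Cd68 (1.26) and Lyz2 (2.08) lay above every WT library in ERBB2 KO, as 8.76% of all tested genes did. The remaining tested marker was lower (-0.68) and overlapped. Of the 6 tested fibroblast markers 3 had an unadjusted p below 0.05 by limma, beside 13.2% of all tested genes. These were Col1a1 (-1.54) and Col1a2 (-2.93), lower, and Col3a1 (2.84), higher, and 0 passed. The 4 endothelial markers with a row summed to at most 0.935 CPM in ERBB2 KO and 0.754 CPM in WT. The part of other cells in these values was not tested.

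MYC proteins share their partner Max with antagonists of the MXD family, and the highest differences in this network belonged to Mxi1 and Mxd4 of that family. Of 18 listed genes of this network 17 have a row and were tested, 7 higher and 10 lower in ERBB2 KO, with 0 passing and a median of -0.19. Mxi1 and Mxd4 separated the groups upward, as 8.76% of all genes did. Max and the Myc-degrading ligase subunit Fbxw7 did so downward, as 10.6% of all genes did. With 2 of 17 each way, near these shares, nothing is read from the counts. Mxi1 had 32.7, 25.3 and 21.4 CPM in ERBB2 KO against 17.1, 9.75 and 11.1 CPM in WT (1.02, SE 0.29, limma adjusted p = 0.328). Mxd4 had 31.1, 12.5 and 13.1 CPM in ERBB2 KO against 6.83, 7.81 and 8.0 CPM in WT (1.10, SE 0.37), so that ERBB2 KO 1 made up much of its difference, which was 0.69 without it. Max itself had 47.8, 51.2 and 56.9 CPM in ERBB2 KO against 57.3, 60.1 and 61.9 CPM in WT (-0.20, SE 0.17), a gap of less than 1 CPM between the groups. Fbxw7 had 54.4, 46.4 and 48.5 CPM in ERBB2 KO against 67.0, 68.6 and 63.6 CPM in WT (-0.41, SE 0.17). The antagonists Mnt (0.49, SE 0.28, and 0.27 without ERBB2 KO 1) and Mxd3 (0.17, SE 0.19) overlapped.

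Genes that MYC activates showed no shared direction. All 30 listed genes were tested, 14 higher and 16 lower in ERBB2 KO, with 0 passing and a median of -0.06, beside -0.04 over all genes. Ldha and Odc1 separated the groups upward and Fbl, a nucleolar methyltransferase named after its values were seen, downward, 3 of 30 beside 19.4% of all genes, so separation was no more common here than elsewhere. Lactate dehydrogenase Ldha had 635, 832 and 961 CPM in ERBB2 KO against 619.9, 432 and 403 CPM in WT (0.74, SE 0.24, limma adjusted p = 0.347), where WT 1 was close to ERBB2 KO 1. Odc1, the first enzyme of polyamine synthesis, had 1144, 488 and 715 CPM in ERBB2 KO against 456, 445 and 462 CPM in WT (0.70, SE 0.30, and 0.38 without ERBB2 KO 1). Cad, an enzyme of pyrimidine synthesis, overlapped, with 39.2, 89.2 and 68.9 CPM in ERBB2 KO against 83.3, 100.3 and 102 CPM in WT. Reads of processed pseudogenes could be shared with such abundant genes, and how they were counted is not given in the sources used here.

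**Figure D4:**
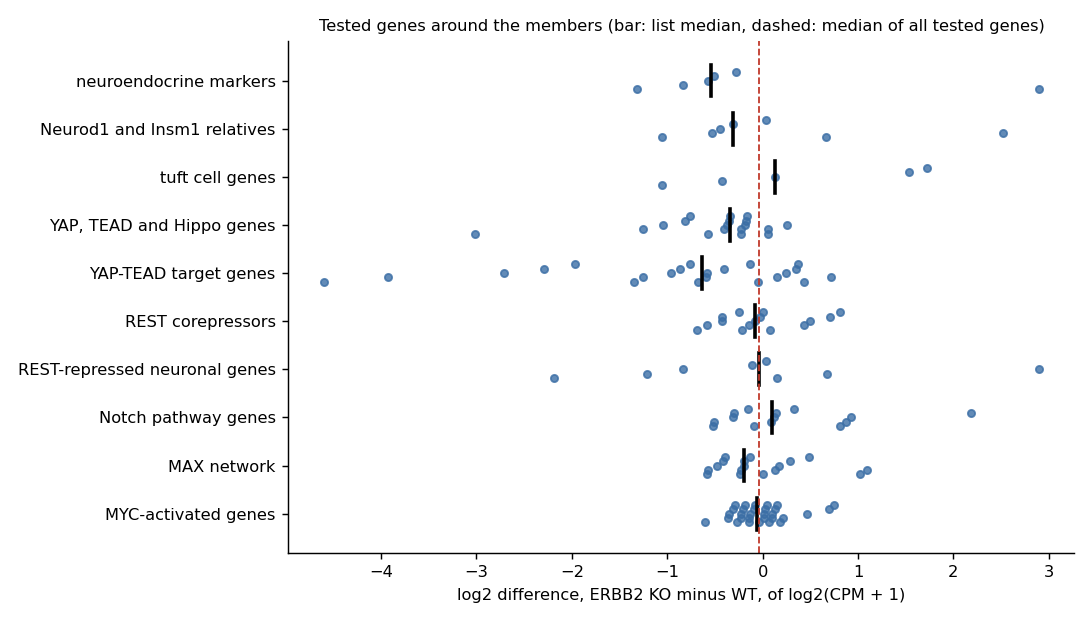
Log2 difference of log2(CPM + 1), ERBB2 KO minus WT (horizontal axis), of each tested gene in the 10 lists around the members (points, spread vertically for sight only); black bars are list medians and the dashed line the median of all tested genes, -0.04. The YAP-TEAD targets reach furthest left, to -4.60 for Ctgf, and the 30 MYC-activated genes stay between -0.60 and 0.74.

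The genes whose levels ran most like a member over the 6 libraries were taken from 8767 tested genes with a mean of at least 5 CPM, by Pearson correlation of log2(CPM + 1). For Hes1 they were Mbd2 (r = 0.99), Zfp746 (0.99) and Them4 (0.99), each lower in all ERBB2 KO libraries, with Mbd2 at 29.7 to 35.3 CPM in ERBB2 KO and 51.3 to 61.9 CPM in WT. For Yap1 they were Rbbp8, Lcorl and Api5 (0.997 to 0.999), and for Rest Cnpy3, Kdm5c and Stt3b (0.993 to 0.997). In all 6 of these ERBB2 KO 1 was likewise higher than WT 1. For Myc they were Taf4 (0.97), Flad1 (0.97) and Lgr4 (0.97), and in each of the 3 WT 3 again lay among the ERBB2 KO libraries. With so many genes and 6 libraries that share depth and composition, values this high are a description only. Between members the other correlations were 0.61 for Yap1 with Hes1, 0.46 for Rest with Hes1, 0.59 for Hes1 with Myc, -0.26 for Yap1 with Myc and -0.33 for Rest with Myc.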

How the data were processed

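Total RNA of 6 murine SCLC libraries, 3 ERBB2 KO and 3 WT, was sequenced by the authors. Labels and methods conflict on the preparation (TruSeq total RNA against Lexogen QuantSeq 3' ends). Tests therefore compared groups within a gene, and sums or rankings of levels over genes are descriptions only. The submitters' processing notes name the build mm10 (GRCm38); aligner and counter are not given in the sources used here. Log2 CPM is the unit of the deposited table, with a prior added by the authors. CPM was taken as 2 to the power of the value minus the shared floor (0.179 CPM); all values above 0 (100%) were then whole multiples of 1 read within 0.1 of a step. Rows with date symbols (14) stayed in the totals and out of the tests, and 46 rows repeat a symbol. Of the symbols, 17148 matched RefSeq (GRCm38.p6).

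The 11803 genes that reached 1 CPM in 3 or more libraries were tested by limma 3.58.1 (R 4.3.3; lmFit, then eBayes with trend) on log2(CPM + 1), with group as sole term, two-sided, at a Benjamini-Hochberg threshold of 0.05. An exact permutation test of 3 against 3 cannot go below 0.1. The fit was also run on simulated data without structure between libraries, so that run does not speak for libraries as uneven as these. The members and lists were chosen with earlier results of these data known. Named genes were the members, up to 4 per list with the smallest p, direct partners of members and 3 best-correlated genes per tested member. Other named genes, among them Uchl1 and the markers used to check the libraries, fall outside this rule, and not each is marked so. Alternatives were the pseudocount, filter, scaling, voom, deposited scale, replicate block and leaving out libraries. Value columns without a sample numbered 0.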

Additional observations from a re-analysis of the deposited data

How the results depend on the processing

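Hes1 and Myc stayed lower in ERBB2 KO in all 17 alternatives each, and 0 members passed in any of the 15 fits counted. Yap1 turned to 0.10 and Rest to 0.22 with WT 1 as the only WT library, and Rest to 0.10 for ERBB2 KO 2 and 3 against WT 1; these alternatives were chosen after seeing the data, and the cause was not tested. Leaving out 1 library gave -0.57 to -0.20 for Yap1, -0.37 to -0.06 for Rest, -1.60 to -1.29 for Hes1 and -1.09 to -0.45 for Myc.

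Leaving out 1 library moved the count of tested genes past the threshold over 0 to 168 (168 without WT 1, 27 without ERBB2 KO 1), and that of members whose groups do not overlap over 1 to 3: Hes1, Yap1 and Rest without WT 1, Hes1 and Yap1 without ERBB2 KO 1, Hes1 and Myc without WT 3. Of all tested genes 42.8%, 37.8% and 25.5% then separated, against 19.4% with 6 libraries, so these counts are not read as gains. Among listed genes it gave 0 to 3, the 3 being Lhx2, Jag2 and Gap43 without WT 1, where the groups also differ in Xist. Of 560 alternatives for 39 named genes of the lists 556 kept direction and call. Calls could hardly change where no gene passed, so this count does not measure how firm the differences are. Dclk1, a tuft cell gene, ran from -1.48 to 0.34 and was reversed at 0.34 without ERBB2 KO 3.

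With the replicate number as a block 0 genes passed, 1286 had an unadjusted p below 0.05, and Hes1 had a limma adjusted p of 0.416. Same-numbered libraries did not deviate together (r = -0.22, -0.16 and -0.05), which gives no sign of pairing but cannot exclude it. The block changed no call, as no gene passed with or without it.

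Depth limits Mycl and Mycn, at 0 to 10 reads outside ERBB2 KO 1. With 3 libraries a group, a wide interval, as for Yap1, Rest and Myc, does not show that levels were equal.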
